A study of Mus musculus with 3 samples.

Results

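Cells that clear dying cells, synapses and myelin debris recognize them through receptors, secreted bridges and adaptors, and 8 such genes are described here across the cell classes of the mouse brain in control, ischemic stroke and hemorrhagic stroke tissue: Megf10, Megf11, Pear1, Gulp1, Mfge8, Itgav, Itgb5 and Adgrb1. They were taken by symbol from the 31053 genes of the count matrix and not by a cutoff on a measured value, although earlier results of these data were known. The 3 libraries, 1 each for control, Ischemic Stroke (IS) and Hemorrhagic Stroke (HS), came from brain tissue of several mice per condition at an age of 10 weeks, of the strain that the labels spell C56BL6 and the study's methods C57BL/6. Ischemia was produced by a suture that closed the middle cerebral artery and was later withdrawn, and hemorrhage by collagenase IV injected into the striatum, so each model stands for 1 lesion type and 1 site. The time from the lesion to the dissociation of this tissue is stated by none of the sources used here. The labels name no transgene or deletion in any group. A number from 1 to 3 after each barcode told the libraries apart, but no source paired it with a condition. Conditions were therefore not compared, the values below were pooled over the 3 libraries, and each library's own value is given as a spread without a group name. No test was made, since the libraries come from different conditions and are not replicates of one. Each 95% interval (exact Poisson for a level, exact Clopper-Pearson for a share of cells) covered counting error only, and levels whose intervals meet, like ratios whose interval holds 0, are called indistinguishable at this depth.

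MEGF10 is a transmembrane receptor with EGF-like repeats, related to Draper, an engulfment receptor of flies, and in the brain it is known for the uptake of synapses by astrocytes. MEGF11 and PEAR1 belong to the same family, and GULP1 is a cytoplasmic adaptor that binds receptors of this kind. MFG-E8 is a secreted protein that binds phosphatidylserine on dying cells at one end and integrins at the other, among them the pair of the alpha v subunit (Itgav) with the beta 5 subunit (Itgb5). ADGRB1, also called BAI1, is an adhesion G protein-coupled receptor that binds phosphatidylserine and signals through ELMO, DOCK1 and RAC1.

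Of 35968 barcodes, 2862 held under 1000 unique molecular identifiers (UMIs, each standing for 1 RNA molecule) and 1544 held over 30% mitochondrial counts, and 31982 were kept. Libraries held 69270514 to 105957232 UMIs, and pairs of libraries shared 24 to 43 barcode sequences. A cell was given a class if at least 3 markers of 1 class had at least 2 UMIs each. By this gate 26148 cells met exactly 1 of 18 gates, 3767 met none and 2067 met several and were left out. The 15 classes with at least 50 cells, 26065 cells in all, are described, and they are called "-like" because they rest on markers alone. In each of these classes no marker of another class was among the 10 leading genes, although neuron-like cells were led by Scg2 and Avp, genes of secretory neurons, and microglia-like cells by Spp1. Library 3 held 991 of 1012 endothelial-like, 101 of 104 pericyte-like, 138 of 158 border macrophage-like and 56 of 76 smooth muscle-like cells. It held only 21 of 2181 T-cell-like and 3 of 157 choroid plexus-like cells, so class and library cannot be told apart for these classes. Levels are given in CPM, the UMIs of a gene per 1000000 UMIs of its class. Although cells that met several gates had been left out, markers of other classes remained. The largest such sum was 5693 CPM of fibroblast markers in mature oligodendrocyte-like cells, beside 8716 CPM of their own. Ependymal markers summed to 1010 CPM in pericyte-like cells. Related classes shared markers as well. Pericyte-like cells held 1957 CPM of smooth muscle markers beside 29944 CPM of their own, and smooth muscle-like cells 1283 CPM of pericyte markers beside 34654 CPM. Oligodendrocyte precursor-like cells held 1265 CPM of committed precursor markers beside 4937 CPM of their own. Committed precursor-like cells held 1938 CPM of mature markers beside 4247 CPM. Droplets also hold free RNA, so T-cell-like cells, which should lack the genes other than Itgav, were read as the background class. T-cell-like cells had a median of 4931 UMIs.

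**Figure D1:**
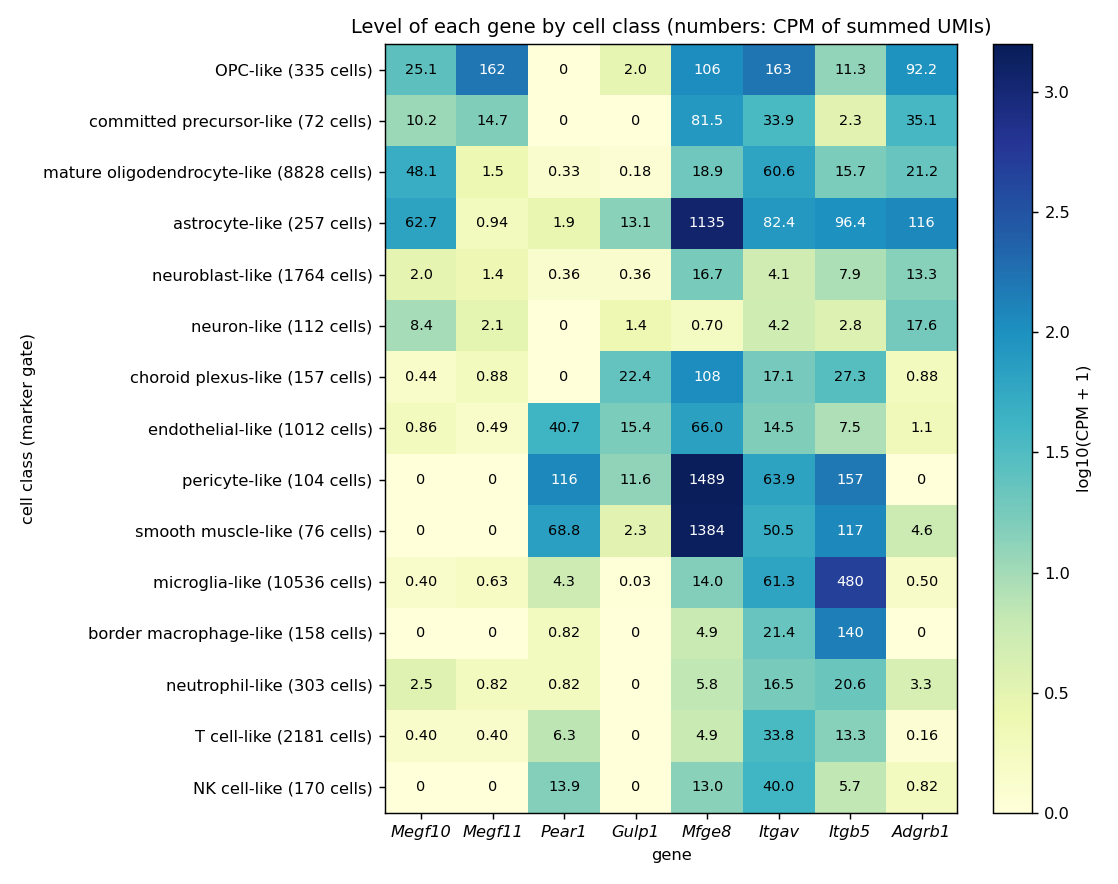
Level of each of the 8 genes (columns) in the 15 cell classes (rows), as CPM of the summed UMIs of a class, with the colour on a log10(CPM + 1) scale and the number of cells in brackets. Each column is to be read from top to bottom, since levels of different genes are not comparable without their lengths. Megf11 stood at 162 CPM in OPC-like cells and at most at 14.7 CPM elsewhere, and Itgb5 was highest in microglia-like cells at 479.7 CPM.

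Megf10 (ENSMUSG00000024593; GRCm38, chromosome 18, 57133090 to 57297467, plus strand) was highest in 2 glial classes. Astrocyte-like cells held 62.7 CPM (95% interval 48.6 to 79.7) from 67 UMIs. Mature oligodendrocyte-like cells held 48.1 CPM (95% interval 46.4 to 49.9) from 2915 UMIs, and the intervals of these first 2 classes met. Oligodendrocyte precursor (OPC)-like cells followed at 25.1 (18.7 to 33.0) CPM, below the mature cells, then committed precursor-like cells at 10.2 (4.66 to 19.3) CPM and neuron-like cells at 8.44 (4.36 to 14.7) CPM, whose intervals met those of their neighbours. The level was 56.4, 68.1 and 62.4 CPM in the astrocyte-like cells of libraries 1 to 3 and 49.5, 55.7 and 41.0 CPM in their mature oligodendrocyte-like cells. Every library thus showed the gene in both classes at more than 40 CPM. A Megf10 UMI was present in 25.9% (95% interval 25.0 to 26.8%) of mature oligodendrocyte-like cells at a median of 6295 UMIs, against 0.229% of T-cell-like cells, and in 4.72% against 0% after each cell was thinned to 1000 UMIs. Astrocyte-like cells were shallower, with a median of 3249 UMIs and a share of 20.2% (95% interval 15.5 to 25.7%), or 6.61% after thinning. Microglia-like cells held 0.404 (0.288 to 0.553) CPM, indistinguishable from T-cell-like cells at 0.403 (0.131 to 0.940) CPM. Among pericyte-, smooth muscle-, NK cell- and border macrophage-like cells no Megf10 UMI was counted, which allows up to 8.71 CPM in the shallowest of them, the pericyte-like cells.

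Megf11 (ENSMUSG00000036466; chromosome 9, 64385626 to 64709205, plus strand) had the narrowest distribution of the family. OPC-like cells held 162 CPM (95% interval 145 to 180.1) from 328 UMIs, committed precursor-like cells 14.7 (7.83 to 25.2) CPM, and the other 13 classes between 0 and 2.11 CPM. In OPC-like cells the 3 libraries gave 155, 146 and 229.6 CPM, so the class was high in each of them. A UMI was found in 58.5% (95% interval 53.0 to 63.8%) of OPC-like cells (median 5786 UMIs) and in 0.183% of T-cell-like cells, and in 16.4% and 0% after thinning. The 3 Megf11 UMIs of neuron-like cells all came from 1 cell.

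Pear1 (ENSMUSG00000028073; chromosome 3, 87747890 to 87824306, minus strand), a receptor known from platelets and endothelium, had its highest levels in the 3 vessel wall classes. Pericyte-like cells held 116 CPM (95% interval 83.0 to 158), smooth muscle-like cells 68.8 (46.5 to 98.3) CPM and endothelial-like cells 40.7 (36.4 to 45.3) CPM. The pericyte- and smooth muscle-like intervals met, and the endothelial-like interval lay below both. NK cell-like cells (13.9 (8.08 to 22.2) CPM from 17 UMIs) and T-cell-like cells (6.28 (4.97 to 7.84) CPM) came next. Microglia-like cells followed at 4.33 (3.93 to 4.77) CPM from 418 UMIs. Mature oligodendrocyte-like cells stood lower at 0.330 (0.202 to 0.510) CPM, so T-cell-like cells were not the lowest class for this gene. In OPC-, committed precursor-, neuron- and choroid plexus-like cells no Pear1 UMI was counted, which allows up to 1.48 CPM in OPC-like cells. Exons of Pear1 overlap those of Lrrc71 on the same strand, so its counts are uncertain to the extent that reads were split between them.

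Gulp1 (ENSMUSG00000056870; chromosome 1, 44551511 to 44796838, plus strand), the adaptor, was sparse in all classes. The order began with choroid plexus-like cells at 22.4 CPM (95% interval 16.7 to 29.5) and endothelial-like cells at 15.4 (12.8 to 18.3) CPM. Astrocyte-like cells at 13.1 (7.17 to 22.0) CPM and pericyte-like cells at 11.6 (3.16 to 29.7) CPM followed. Each interval met that of the next class in the order. These levels rested on 51, 126, 14 and 4 UMIs. Classes in which the receptor Megf10 was measured held little of the adaptor other than the astrocyte-like cells, with 0.182 (0.0906 to 0.325) CPM in mature oligodendrocyte-like and 1.97 (0.537 to 5.05) CPM in OPC-like cells. No Gulp1 UMI was found in the 2181 T-cell-like cells, a count that leaves room for UMI-positive cells at up to 0.138% and sets no limit on cells that make the RNA, and 3 were found in the 10536 microglia-like cells.

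Promoter sequence from RefSeq (GRCm38.p6) was at hand for Pear1, Gulp1, Mfge8, Itgav and Itgb5, from 250 bases before to 50 bases after the start that RefSeq gives. That start lies inside the GENCODE span of Pear1 and of Gulp1, away from the outermost start printed above. The Pear1 window does not reach its outermost start, while the Gulp1 window holds it. Both windows were left out of what follows. The sequences of Mfge8, Itgav and Itgb5, the bridge and the integrin pair that takes it up, are shown because these genes moved together within mature oligodendrocyte-like cells (values with the Klk6 cells). Capitals mark GAGGAA, 1 form of the letters bound by ETS factors, on either strand. Other forms were not searched and are not marked. TTGGCA, an NFI half-site, was also searched on both strands. The letters were chosen after the levels were known.
Mfge8, chr7:79149011-79149310, minus strand: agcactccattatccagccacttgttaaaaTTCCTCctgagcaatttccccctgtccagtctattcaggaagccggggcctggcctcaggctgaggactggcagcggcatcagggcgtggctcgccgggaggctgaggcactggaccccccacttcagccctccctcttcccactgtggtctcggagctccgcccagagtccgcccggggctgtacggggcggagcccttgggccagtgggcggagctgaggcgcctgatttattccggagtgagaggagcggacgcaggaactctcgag
Itgav, chr2:83724147-83724446, plus strand: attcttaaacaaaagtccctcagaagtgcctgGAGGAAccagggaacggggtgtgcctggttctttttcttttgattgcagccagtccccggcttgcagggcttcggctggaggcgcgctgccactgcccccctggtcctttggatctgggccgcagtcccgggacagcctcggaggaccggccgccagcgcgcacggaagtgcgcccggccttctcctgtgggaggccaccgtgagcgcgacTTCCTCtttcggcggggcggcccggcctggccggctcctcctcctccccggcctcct
Itgb5, chr16:33829415-33829714, plus strand: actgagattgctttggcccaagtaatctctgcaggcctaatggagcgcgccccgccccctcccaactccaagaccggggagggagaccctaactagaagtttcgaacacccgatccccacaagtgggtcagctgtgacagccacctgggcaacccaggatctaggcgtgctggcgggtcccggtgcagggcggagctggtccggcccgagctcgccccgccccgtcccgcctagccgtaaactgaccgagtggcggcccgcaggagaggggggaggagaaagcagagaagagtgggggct
GAGGAA occurred 1 time in the Mfge8 window and 2 times in the Itgav window and not in the Itgb5 window, while 28.3% of 32851 promoters of the same length held it. TTGGCA was in none of the 3 windows and in 14.1% of all promoters. These matches describe letters, not binding.

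Mfge8 (ENSMUSG00000030605; chromosome 7, 79133768 to 79149060, minus strand), the secreted bridge, reached its highest levels in 2 mural classes and in astrocyte-like cells. Pericyte-like cells held 1489 CPM (95% interval 1363 to 1624) and smooth muscle-like cells 1384 (1276 to 1499) CPM, which were indistinguishable, and astrocyte-like cells held 1135 (1072 to 1201) CPM. Library 3 held unequal shares of these classes, and within it the values were 1500.4, 1468 and 1326 CPM, closer together than the pooled ones. After a step of about 10-fold came choroid plexus-like cells at 108 (94.6 to 122) CPM, OPC-like cells at 106 (92.3 to 121) CPM, committed precursor-like cells at 81.5 (63.7 to 103) CPM and endothelial-like cells at 66.0 (60.5 to 71.8) CPM, each indistinguishable from the next, although OPC-like cells stood at 161 CPM after thinning. Thinned to 1000 UMIs, 76.9% of pericyte-like and 61.1% of astrocyte-like cells still held a UMI, against 0.642% of T-cell-like cells; without thinning the shares were 98.1%, 84.8% and 2.71% at medians of 3183.5, 3249 and 4931 UMIs. The libraries differed for this gene. Library 1 to 3 gave 646, 1056 and 1326 CPM in astrocyte-like, 79.6, 120.0 and 184 CPM in OPC-like, 15.1, 15.4 and 24.2 CPM in mature oligodendrocyte-like, 10.3, 11.0 and 26.8 CPM in neuroblast-like and 11.4, 12.1 and 28.0 CPM in microglia-like cells. Library 3 was the highest in all of these classes, and it also held 101 of the 104 pericyte-like and 133 of the 257 astrocyte-like cells. In the T-cell-like cells of the libraries the level was 4.23, 5.09 and 29.95 CPM. The last came from 21 cells, of which 14.3% held a UMI, so the background of library 3 was poorly measured. The part of the background in low Mfge8 levels of other classes was not tested.

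Itgav (ENSMUSG00000027087; chromosome 2, 83724397 to 83806916, plus strand), the alpha v subunit, which pairs with several beta subunits, was measured in most classes. OPC-like cells were highest at 163 CPM (95% interval 146 to 182), with 175, 155 and 130.1 CPM in the libraries. Astrocyte-like cells (82.4 (66.1 to 102) CPM), pericyte-like cells (63.9 (40.0 to 96.7) CPM), microglia-like cells (61.3 (59.8 to 62.9) CPM), mature oligodendrocyte-like cells (60.6 (58.7 to 62.6) CPM) and smooth muscle-like cells (50.5 (31.6 to 76.4) CPM) followed, and neighbours in this order were indistinguishable. T-cell-like cells held 33.8 (30.7 to 37.2) CPM, which is no background here, since T cells are known to make this subunit. Neuron-like cells at 4.22 (1.55 to 9.19) CPM and neuroblast-like cells at 4.08 (2.98 to 5.47) CPM closed the order.

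Itgb5 (ENSMUSG00000022817; chromosome 16, 33829665 to 33949338, plus strand), the beta 5 subunit, was highest in microglia-like cells at 479.7 CPM (95% interval 475 to 484), 36.1 times the level in T-cell-like cells. A UMI was found in 91.2% (95% interval 90.6 to 91.7%) of microglia-like cells (median 7581.5 UMIs) and in 6.56% of T-cell-like cells, or in 39.3% and 1.38% after thinning. Pericyte-like cells (157 (118 to 205) CPM), border macrophage-like cells (139.8 (119.5 to 162) CPM), smooth muscle-like cells (117 (87.1 to 154) CPM) and astrocyte-like cells (96.4 (78.7 to 117) CPM) came next and were each indistinguishable from their neighbour. The other 10 classes held between 2.26 and 27.3 CPM, among them mature oligodendrocyte-like cells at 15.7 (14.7 to 16.7) CPM, whose interval met that of T-cell-like cells at 13.3 (11.3 to 15.5) CPM. In microglia-like cells libraries 1 to 3 gave 449, 397 and 893 CPM, so library 3 stood at about 2 times the other 2.

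Both subunits of the pair were found in the same cell in 30.2% of microglia-like cells, 10.1% of border macrophage-like, 9.21% of smooth muscle-like, 8.28% of choroid plexus-like and 7.78% of astrocyte-like cells. T-cell-like cells gave 1.33%. The 2 subunits parted in the oligodendrocyte lineage, where 57.3% of OPC-like cells had an Itgav UMI, 6.57% an Itgb5 UMI and 4.48% both. These shares were not thinned and depend on depth.

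Adgrb1 (ENSMUSG00000034730; chromosome 15, 74516195 to 74589465, plus strand) was highest in astrocyte- and OPC-like cells, and lower in mature oligodendrocyte-like cells and neuronal classes. Astrocyte-like cells held 116 CPM (95% interval 96.6 to 138) and OPC-like cells 92.2 (79.4 to 106) CPM, which were indistinguishable, followed by committed precursor-like cells at 35.1 (23.8 to 49.8) CPM. With each cell thinned to 1000 UMIs the first 2 were 183 and 74.6 CPM, so the call rests on the unthinned levels. Mature oligodendrocyte-like cells held 21.2 (20.1 to 22.4) CPM, neuron-like cells 17.6 (11.4 to 26.0) CPM and neuroblast-like cells 13.3 (11.3 to 15.7) CPM, with neighbours indistinguishable. Microglia-like cells held 0.498 (0.367 to 0.660) CPM and T-cell-like cells 0.161 (0.0195 to 0.582) CPM, the latter from 2 UMIs. The libraries gave 199.8, 117 and 88.7 CPM in astrocyte-like and 84.1, 72.3 and 176 CPM in OPC-like cells, so library 3 was the lowest for one class and the highest for the other. An annotated miRNA gene, Gm26117, lies within an exon stretch of Adgrb1 on the same strand.

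Within the oligodendrocyte lineage Megf11, Mfge8, Adgrb1 and Itgav were lower in mature than in OPC-like cells, and Megf10 was higher. Mature oligodendrocyte-like and OPC-like cells were compared by the log2 ratio of their CPM, beside all 12440 genes with at least 50 UMIs in the 2 classes together, whose median ratio was -0.63. Megf11 was 110.0-fold lower in the mature cells, at a log2 ratio of -6.78 (95% interval -7.14 to -6.44). For Mfge8 the log2 ratio was -2.49 (95% interval -2.70 to -2.27), for Adgrb1 -2.12 (95% interval -2.34 to -1.89) and for Itgav -1.43 (95% interval -1.59 to -1.26). In all 3 libraries these 4 genes were lower in the mature cells; Adgrb1, for instance, stood at 19.6, 18.1 and 24.8 CPM in the mature and 84.1, 72.3 and 176 CPM in the OPC-like cells. Megf10 went the other way at 0.94 (95% interval 0.54 to 1.37), a 1.91-fold higher level in the mature cells. Its levels in libraries 1 to 3 were 49.5, 55.7 and 41.0 CPM in the mature and 25.9, 21.5 and 30.6 CPM in the OPC-like cells, so the mature cells were higher in each library and the 2 sets of values did not overlap. The OPC-like values rested on 51 UMIs over the 3 libraries, and no interval was computed by library. Thinned to 1000 UMIs per cell, the Megf10 ratio was 1.72, with a UMI left in 1.49% of the 335 OPC-like cells. Itgb5 was indistinguishable at 0.47 (95% interval -0.13 to 1.13). Gulp1, at -3.44 (95% interval -5.20 to -1.33), rested on 11 and 4 UMIs, and no ratio was computed for Pear1, which had 20 UMIs in the mature and 0 in the OPC-like cells. Of the 6 members with at least 50 UMIs, 4 were at least 2-fold lower and none at least 2-fold higher in the mature cells, while 35.0% of all genes were at least 2-fold lower and 11.4% at least 2-fold higher.

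The 72 committed precursor-like cells, between the 2 classes in differentiation, did not stand between them for each gene. Mfge8 held at 81.5 CPM, indistinguishable from OPC-like cells with a log2 ratio of -0.38 (95% interval -0.79 to 0.01) over them, and above mature cells. Megf11 was already 11.0-fold lower than in OPC-like cells. Thinned to 1000 UMIs the Mfge8 ratio was -1.54, and without library 1 it was -0.89. Itgav at 33.9 CPM and Megf10 at 10.2 CPM were below the mature cells, and had log2 ratios over OPC-like cells of -2.26 (95% interval -2.86 to -1.72) and -1.30 (95% interval -2.51 to -0.27). The Itgav interval lay below that of the OPC-like cells, while the Megf10 intervals of the 2 classes met. The Megf10 value rested on 9 UMIs and its ratio was -0.10 after thinning and -2.18 without library 1. After thinning, 1.39% of the 72 committed precursor-like cells held a Megf10 UMI and 5.56% a Mfge8 UMI. The thinned ratios thus rest on few counts. In libraries 1 and 2, the libraries with at least 20 such cells, Itgav stood at 41.3 and 17.8 CPM, below the mature cells of the same libraries in both.

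**Figure D2:**
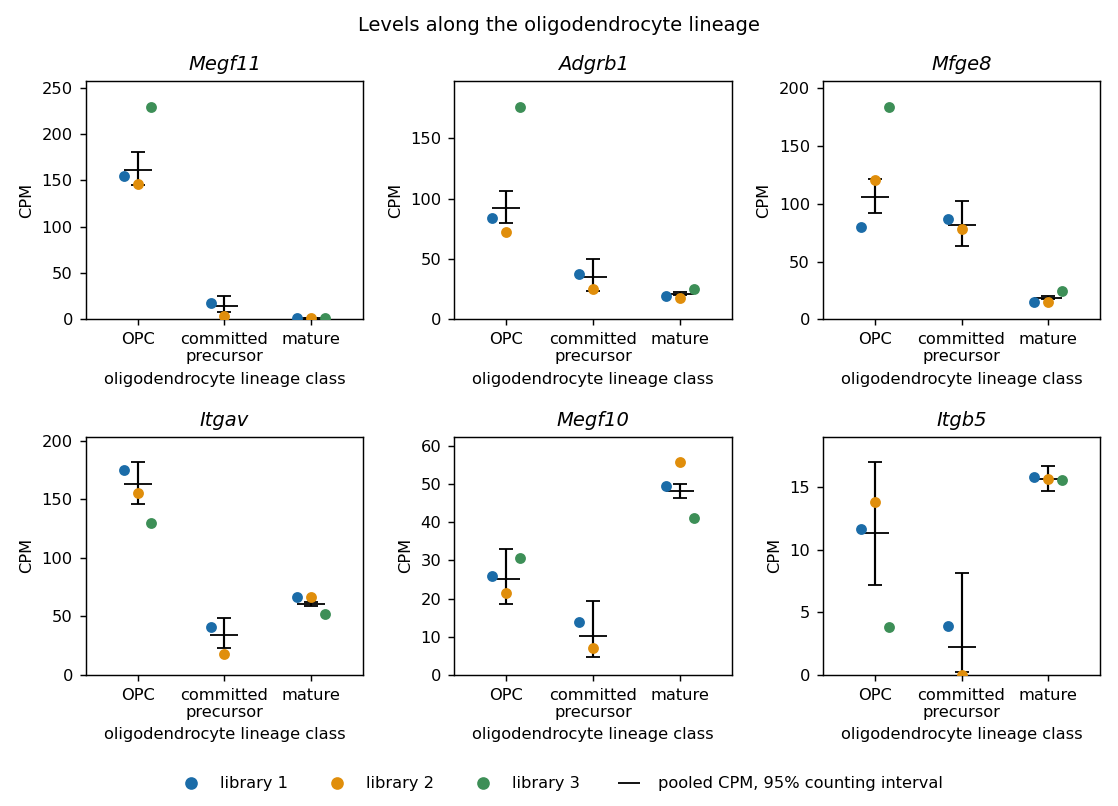
CPM of 6 genes in OPC-like, committed precursor-like and mature oligodendrocyte-like cells. Points are the libraries with at least 20 cells of the class, and black bars are the pooled value with its 95% counting interval. Megf11, Adgrb1, Mfge8 and Itgav were higher in OPC-like cells in each library, and Megf10 was higher in mature cells in each library.

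Other engulfment genes, given by lists, showed where the members stood in their pathways. Of 29 such genes, 21 had at least 50 UMIs in the 2 classes, of which 10 were at least 2-fold lower and 2 at least 2-fold higher in mature oligodendrocyte-like cells. Of all 12440 genes tested, 35.0% were at least 2-fold lower and 11.4% at least 2-fold higher. The TAM receptors and ligands (Mertk, Axl, Tyro3, Gas6, Pros1), a parallel route that also reads phosphatidylserine, were 4 of 5 lower, with Tyro3 as the exception at 131 against 25.6 CPM. Of 11 other phosphatidylserine and scavenger receptors, 5 had enough UMIs and 4 were lower, among them the Adgrb1 relatives Adgrb2 (7.73 against 70.0 CPM) and Adgrb3 (3.63 against 86.7 CPM). Lrp1, an endocytic receptor that also binds GULP1, was at 518 (487 to 550.3) CPM in OPC-like and 3.24 (2.80 to 3.72) CPM in mature cells. Of the 6 integrin partners and bridges, 4 had enough UMIs. Edil3, a secreted relative of Mfge8, was higher in mature cells (581 against 145 CPM), and Itgb8, another partner of the alpha v subunit, was lower (76.3 against 204 CPM). The bridge genes Mfge8 and Edil3 were thus on opposite sides of the lineage. Of the 7 intracellular genes (Elmo1, Elmo2, Dock1, Crk, Rac1, Abca1, Abca7), 1 passed the fold, Abca1, which was lower. The median log2 ratio was -1.77 over the 6 members, -0.93 over the 21 other genes and -0.63 over all genes tested.

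Within mature oligodendrocyte-like cells, the integrin pair and its bridge were higher in cells with Klk6 than in cells with Il33. Cells with at least 2 Klk6 UMIs and none of Il33 (676 cells, median 9593.5 UMIs) were set beside cells with at least 1 Il33 UMI, at least 2 Ptgds UMIs and none of Klk6 (5660 cells, median 6147.5 UMIs). Klk6 encodes a secreted protease and Il33 an alarmin cytokine, and both mark known subtypes of mature oligodendrocytes. Mfge8 was at 43.1 CPM (95% interval 38.2 to 48.5) in Klk6 cells and 13.5 CPM (95% interval 12.3 to 14.7) in Il33 cells, a log2 ratio of 1.68 (95% interval 1.46 to 1.90). By library it stood at 32.4, 37.9 and 54.8 CPM against 10.7, 10.5 and 17.4 CPM. The Klk6 cells of each library were above the Il33 cells of all libraries.
Itgb5 was at 34.3 CPM (95% interval 29.96 to 39.1) against 10.3 CPM (95% interval 9.24 to 11.4), a log2 ratio of 1.74 (95% interval 1.50 to 1.99). By library it stood at 26.1, 39.7 and 37.3 CPM against 11.6, 11.8 and 8.23 CPM, again without overlap. T-cell-like cells, the background class, held 13.3 (11.3 to 15.5) CPM of Itgb5, and the Il33 cells were not above them. T-cell-like cells were not the lowest class for this gene, however. Endothelial-like cells stood at 7.45 (5.70 to 9.57) CPM and neuron-like cells at 2.81 (0.767 to 7.20) CPM. The part of the background in the Itgb5 level of Il33 cells was not tested. Itgav was at 106 CPM (95% interval 98.1 to 114) against 49.5 CPM (95% interval 47.2 to 51.8), a log2 ratio of 1.10 (95% interval 0.97 to 1.23), and at 104, 124 and 95.7 CPM against 54.7, 55.7 and 41.4 CPM by library, also without overlap. Thinned to 1000 UMIs, an Itgav UMI was in 10.7% of Klk6 and 4.77% of Il33 cells, and without thinning in 57.8% and 25.1%. Megf10 and Adgrb1 did not share this pattern. Megf10 was nearly level at a log2 ratio of -0.20 (95% interval -0.38 to -0.02) and Adgrb1 was lower in Klk6 cells at -0.50 (95% interval -0.81 to -0.21), in each library in both cases. Of the 6 members with at least 50 UMIs in the 2 states, 3 were at least 2-fold higher in Klk6 cells and none at least 2-fold lower, while 4.48% of 11294 genes were at least 2-fold higher and 6.84% at least 2-fold lower. Of the 21 other engulfment genes with enough UMIs, 3 were at least 2-fold higher (Gas6, Adgrb3, Itgb3) and 2 at least 2-fold lower (Lrp1, Dock1).
Microglia-like cells carried the most Itgb5, so their RNA in these droplets was checked. The summed level of the 6 microglial markers was 99.6 CPM in Klk6 and 130.2 CPM in Il33 cells, and C1qa was at 88.7 and 133 CPM, both lower in the Klk6 cells. The part of microglial RNA in the Itgb5 levels was not tested. For Mfge8, the astrocyte marker sum was 54.7 CPM in Klk6 and 32.1 CPM in Il33 cells, higher where Mfge8 was higher, and the pericyte marker sum was 5.26 and 7.55 CPM. The part of astrocyte RNA in the Mfge8 difference was not tested.

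**Figure D3:**
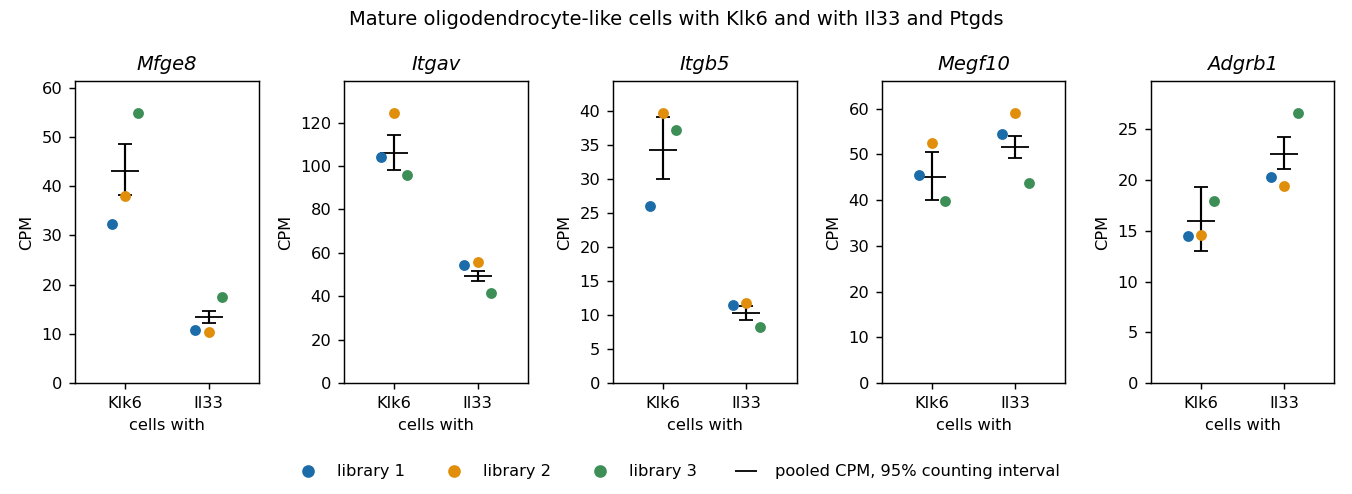
CPM of 5 genes in mature oligodendrocyte-like cells with Klk6 (676 cells) and with Il33 and Ptgds (5660 cells). Points are libraries, and black bars are the pooled value with its 95% counting interval. Mfge8, Itgav and Itgb5 were higher in Klk6 cells without overlap of the libraries, and Megf10 and Adgrb1 were not.

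In microglia-like cells Itgb5 took a smaller share of the UMIs in activated cells within libraries 1 and 2, and stood highest in library 3. Cst7, a protease inhibitor gene of activated microglia, split them into 4984 cells with at least 2 UMIs and 4604 cells with none. The median depth was 11901.5 UMIs in the Cst7 cells and 5519 UMIs in the Cst7-free cells. The pooled Itgb5 level was 399 CPM (95% interval 394 to 404) in Cst7 cells and 667 CPM (95% interval 657 to 677) in Cst7-free cells, a log2 ratio of -0.74 (95% interval -0.77 to -0.71). Over the 12196 genes with at least 50 UMIs in the 2 states the median log2 ratio was -0.59, so most of this shift was not particular to Itgb5. An Itgb5 UMI was in 93.8% of the deeper Cst7 cells and 89.3% of Cst7-free cells, or in 32.8% and 46.3% after thinning. Library 3 gave 8 Cst7 cells and 1888 Cst7-free cells, so the split and the library were mixed. Within library 1 the levels were 429.6 and 492 CPM and within library 2 383 and 467 CPM, while the Cst7-free cells of library 3 held 890.0 CPM. The Cst7-free cells of libraries 1 and 2 were closer to each other than to the Cst7 cells of their own library, and those of library 3 stood apart from all of them. Pooled over the libraries, Itgav was indistinguishable between the states, at a log2 ratio of 0.02 (95% interval -0.06 to 0.11). Within libraries 1 and 2 it was lower in Cst7 cells, at 63.6 and 60.0 CPM against 71.3 and 64.9 CPM. No interval was computed by library. Mfge8 was at 14.0 (13.3 to 14.8) CPM in all microglia-like cells against 4.91 (3.76 to 6.31) CPM in T-cell-like cells. By library the levels were 11.4, 12.1 and 28.0 against 4.23, 5.09 and 29.95 CPM, higher in microglia-like cells in libraries 1 and 2 but not in library 3. The T-cell-like value of library 3 came from only 21 cells, of which 14.3% held a UMI. In libraries 1 and 2 Mfge8 was at 10.5 and 11.6 CPM in Cst7 and 14.9 and 15.7 CPM in Cst7-free cells. Of the 5 members with at least 50 UMIs in the 2 states, none was at least 2-fold higher or lower, while 4.10% of 12196 genes were at least 2-fold higher in Cst7 cells and 25.0% at least 2-fold lower.

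**Figure D4:**
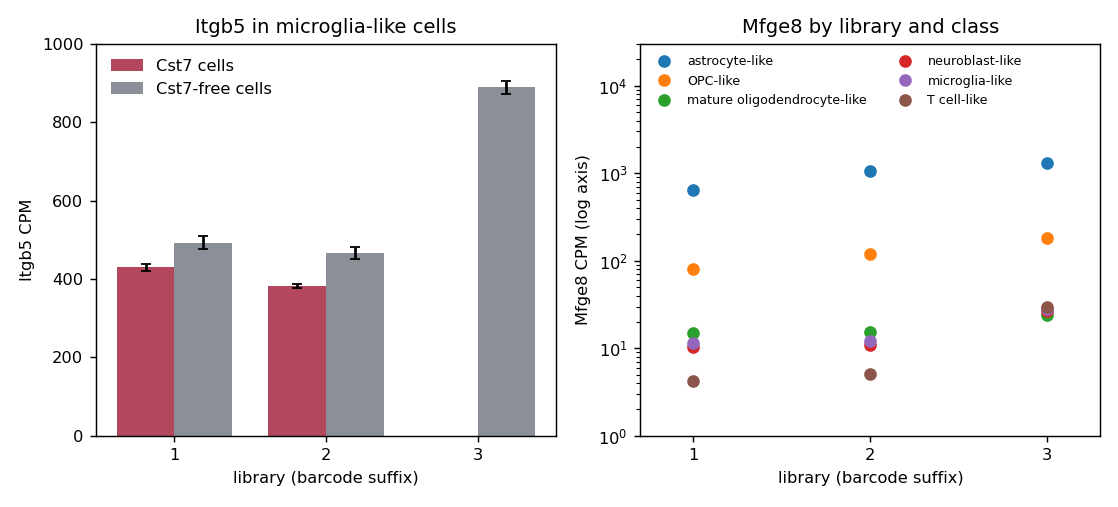
Left, Itgb5 CPM in Cst7 and Cst7-free microglia-like cells of each library with 95% counting intervals; library 3 had too few Cst7 cells for a bar. Right, Mfge8 CPM (log axis) in 6 classes by library. Itgb5 was highest in the Cst7-free cells of library 3 at 890.0 CPM, and Mfge8 was highest in library 3 in each class shown.

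Astrocyte-like cells, the class with the highest pooled Megf10 and Adgrb1 levels, were split by Agt, the gene of angiotensinogen and a marker of regional astrocytes, after the class levels were seen. Adgrb1 was at 198 CPM (95% interval 154 to 250.3) in the 107 cells with at least 2 Agt UMIs and at 65.6 CPM (95% interval 46.8 to 89.3) in the 121 cells with none, a log2 ratio of 1.59 (95% interval 1.01 to 2.19). In libraries 2 and 3, each with at least 20 cells of both kinds, it was at 249 and 117 CPM in Agt cells and 34.2 and 75.0 CPM in Agt-free cells. The log2 ratio was 2.87 in library 2 and 0.64 in library 3, and no interval was computed by library. Adgrb1 rested on 69 UMIs in all Agt cells and 40 UMIs in all Agt-free cells, at median depths of 2743 and 4058 UMIs. Itgav had a log2 ratio of 0.95 (95% interval 0.28 to 1.64). Megf10, from 30 and 31 UMIs, was at 86.0 CPM (95% interval 58.0 to 123) and 50.8 CPM (95% interval 34.5 to 72.1), which were indistinguishable. Mfge8 was indistinguishable as well at 1081 CPM (95% interval 974 to 1195) and 1150.5 CPM (95% interval 1067 to 1239). Without library 3 the Adgrb1 ratio was 2.41. The OPC markers, of another class with high Adgrb1, summed to 31.5 CPM in Agt and 62.3 CPM in Agt-free cells. Library 1 gave 40 Agt cells and 7 Agt-free cells and library 3 gave 32 and 86, so the pooled ratios also carried the libraries. Of the 5 members with at least 50 UMIs here, Adgrb1 was at least 2-fold higher in Agt cells and none at least 2-fold lower, while 5.33% of 3076 genes were at least 2-fold higher and 15.2% at least 2-fold lower.

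The genes most like each member over the 15 classes were found by Pearson's r of log2(CPM + 10) among 7772 genes that reached 50 CPM in a class and were no gate marker. The classes share libraries and depth, so r is a description. For Megf10 they were Fbxo2 (0.953), Omg (0.949) and Fam228b (0.946), for Megf11 Irx1 (0.994), Chst5 (0.993) and Pcdh15 (0.992) and for Pear1 Itga1 (0.978), Rbpms (0.956) and Tbx3 (0.944). For Gulp1 they were Pir (0.886), Ccdc141 (0.883) and Msx1 (0.881), and those for Mfge8 included Plce1 (0.950) and Hspa2 (0.945). Itgav had the loosest matches, Zcchc24 (0.762), Mif4gd (0.710) and Nr3c1 (0.710), followed by Itgb5 with Axl (0.877), Asph (0.874) and Cst3 (0.859). For Adgrb1 they were Npas3 (0.974), Adgrb2 (0.965) and Pcdh10 (0.961), of which Adgrb2 is its own relative and Axl, beside Itgb5, is a TAM receptor.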

How the data were processed

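Brain tissue of control, ischemic and hemorrhagic mice was profiled with 3' single-cell libraries, 1 per condition. The authors made 1 matrix of UMI counts with Cell Ranger 3.1.0 and STAR, down-sampling reads to even out the libraries; mm10 is the build in the submitters' processing notes. The deposited counts are whole numbers per gene and barcode, not normalized per cell, and every library's column was used as 1 pooled sample.

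Counts were read with Python 3.11.15, NumPy 2.4.6, SciPy 1.17.1 and pandas 2.3.3. Barcodes with at least 1000 UMIs and at most 30% mitochondrial counts were gated by lists of 6 to 7 markers, as described in the text. Border macrophages took precedence over microglia, and neighbouring steps of the oligodendrocyte lineage were settled by the larger number of markers that passed. The number of markers that must pass was chosen after comparing class sizes under several gates and the precedence after seeing which gates overlapped. The states of mature oligodendrocytes and microglia were named with earlier results of these data known, and their UMI minimums, like the Agt split, the shares of cells with both integrin subunits and the motifs, were set after seeing the data. Doublets were left out only as cells that met several gates; Scrublet (scanpy 1.11.5, expected rate 10%), run as an alternative, called 3.79 to 5.66% of barcodes per library, and 36.0 to 42.6% of simulated doublets lay above its thresholds, so many go uncalled.

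Genes were matched by symbol and placed in the GENCODE M21 annotation of GRCm38 by identifier, which held 99.9% of identifiers. Named genes are the 8 members, the lists of other engulfment genes and the 3 genes most like each member, of which 1 is not reported here. The members and lists were chosen with earlier results of these data known. A class or state needed at least 20 cells in a library for that library's own value. Intervals are exact at 95% and cover counting error only, and a count of 0 was read as allowing 3 counts. The interval and fold code was tested on simulated counts. No test was made, since cells are not replicates and no source gives the library of each condition. Alternatives were a stricter gate, other UMI and mitochondrial limits, upper limits of the mean + 2 SD on UMIs and genes as in the study's methods, called doublets left out, cells thinned to 1000 UMIs, equal weight for the libraries and each library left out. Matplotlib 3.10.9 drew the figures.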

Additional observations from a re-analysis of the deposited data

How the results depend on the processing

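Over the alternatives, 222 of 252 ratios and 75 of 86 levels stayed within the 95% counting interval of the reported value, and no ratio whose interval lay apart from 0 changed sign. No test was made over the libraries, paired or not, since each is of another condition. The values of each library are set side by side in the report. With 1 library left out at a time, Itgb5 in microglia-like cells ranged over 416 to 583 CPM and Adgrb1 in astrocyte-like cells over 97.4 to 152 CPM. The log2 ratio of mature oligodendrocyte-like over OPC-like cells ranged over -2.77 to -2.26 for Mfge8, that of Klk6 over Il33 cells over 1.46 to 1.95 for Itgb5, and that of Cst7 over Cst7-free cells over -0.92 to -0.27 for Itgb5, -1.15 to -0.45 for Mfge8 and -0.15 to 0.12 for Itgav, whose sign was not settled. The ratios nearest 0 for Itgb5 and Mfge8 were those without library 3. For committed precursor-like over OPC-like cells the log2 ratio of Mfge8 ranged over -0.89 to -0.17, and for Agt over Agt-free cells that of Adgrb1 over 1.25 to 2.41. Cells thinned to 1000 UMIs gave 182 CPM for Megf11 and 197 CPM for Itgav in OPC-like cells, 536 CPM for Itgb5 in microglia-like cells and 183 CPM for Adgrb1 in astrocyte-like cells. They gave log2 ratios of mature over OPC-like cells of 1.72 for Megf10, -7.19 for Megf11, -2.93 for Mfge8, -1.76 for Itgav and -1.68 for Adgrb1. Thinned ratios of Klk6 over Il33 cells were 2.03 for Mfge8, 2.09 for Itgb5 and -0.86 for Adgrb1, and those of Cst7 over Cst7-free cells -0.60 for Mfge8 and -0.68 for Itgb5. Thinning also gave -0.10 for Megf10 and -1.54 for Mfge8 in committed precursor-like over OPC-like cells and -0.50 for Mfge8 in Agt over Agt-free cells. The last was 0.26 with a mitochondrial limit of 10%, on either side of 0, and the Mfge8 ratio of committed precursor-like cells was -0.85 with upper limits on UMIs and genes. With equal weight for each library, Itgb5 in microglia-like cells was 579.6 CPM, and the log2 ratios were -2.81 for Mfge8 and -2.41 for Adgrb1 in mature over OPC-like cells and -0.60 for Itgb5 in Cst7 over Cst7-free cells. Itgb5 in microglia-like cells was 487 CPM with 1 marker more per gate and 499 CPM with upper limits on UMIs and genes. The cause of these moves was not tested. Beside the moves of over 1.5 times given in the report and the thinned Adgrb1 level, the Gulp1 ratio of mature over OPC-like cells, which rests on 4 UMIs in OPC-like cells, ranged from -4.46 to -2.17, and the ratios of committed precursor-like over OPC-like cells from -2.49 to -0.10 for Megf10 and from -4.05 to -3.09 for Megf11. The alternatives for the Agt split were chosen after seeing the data. Depth limits the sparse genes most: Gulp1 in each class, and all genes in classes of about 100 cells.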
